A study of Mus musculus with 20 samples.

Results

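The genes described here are 10 components of growth hormone signalling in the liver and of its feedback, picked by name from the 36128 genes of the deposited expression table, with earlier results of these data known: Ghr, Prlr, Stat5b, Igf1, Igfals, Cish, Socs2, Socs3, Bcl6 and Cux2. All 10 were listed in the expression table and in both strains' count tables, and all 10 were tested. Polyadenylated RNA was sequenced from 20 whole livers of untreated, unmodified mice of 2 inbred strains, B6 (C57BL/6J) and CAST (CAST/EiJ), with 5 male and 5 female livers of each strain, all at 8 weeks of age. Groups follow the sample titles, because a separate strain entry in the labels names the other strain for 10 of the 20 livers. The study collected the livers late in the morning and over several days, but the labels give no day, and no hormone level or STAT5 activity was analysed here.

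Growth hormone binds its receptor on hepatocytes and activates the kinase JAK2, which phosphorylates STAT5. STAT5 enters the nucleus and induces IGF1, its carrier protein and a set of inhibitors that switch the pathway off again. In rodents, males secrete growth hormone in pulses and females secrete it almost continuously, and this difference sets much of the sex bias of liver gene expression. Bcl6 and Cux2 encode repressors that act downstream of the male and the female pattern, respectively.

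STAT5 recognizes the palindrome TTCNNNGAA, which reads the same on both strands, and the sequences below show where these letters stand next to the start sites of the feedback genes and other members. A promoter window of 300 bases (250 before and 50 after the annotated start, RefSeq, GRCm38.p6) was found for 9 of the 10 genes, and Socs2 had no entry. The motif stood in at least 1 window of 5 of these 9 genes (Prlr, Igfals, Cish, Socs3 and Bcl6), against 9.55% of all genes and 8.3% of all windows in the table. Several genes have more than 1 start and therefore more than 1 window. The windows of Ghr, Stat5b, Igf1 and Cux2 did not hold these letters, which says nothing of sites elsewhere. Each stretch occurs once in mm9, the build whose coordinates are given; it is written 5′ to 3′ on the gene's strand with the motif in capitals, and the CAST sequence was not examined.
Cish, chr9:107198985-107199014, plus strand: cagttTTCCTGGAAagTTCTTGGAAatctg
Bcl6, second start, chr16:23981444-23981542, minus strand: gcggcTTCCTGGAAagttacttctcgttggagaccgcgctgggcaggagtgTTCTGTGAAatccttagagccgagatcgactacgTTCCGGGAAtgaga
Bcl6, first start, chr16:23989042-23989062, minus strand: aattagTTCTCAGAAttccag
Socs3, chr11:117830820-117830840, minus strand: ccagccTTCTTAGAAgggagg
Igfals, first start, chr17:25014547-25014567, plus strand: tataatTTCTCAGAAaagagg
Igfals, second start, chr17:25015112-25015132, plus strand: caggtgTTCCTAGAAgaggcc
Prlr, second start, chr15:10153545-10153565, plus strand: aatgagTTCTAGGAAtaaggg
Cish and Bcl6 carried more than 1 copy in a single window: 2 copies at the start of Cish, and 3 copies within a stretch of 99 bases upstream of the second start of Bcl6. In the whole table, 0.457% of windows held 2 or more copies and 0.033% held 3 or more.

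Libraries held between 7969482 and 35328573 reads on genes, with the lowest group median in CAST males and the highest in CAST females. All 6 hepatocyte markers were present in every group, with a summed level of 16332 to 29713 FPKM (fragments per kilobase of transcript, scaled to depth) per liver. This sum was higher in every female than in every male liver of a strain, at 24343 to 29713 against 19233 to 20291 in B6 and 19432 to 25223 against 16332 to 17859 in CAST. It is mostly Alb, with a mean of 21737 against 13935 FPKM in B6 and 18509 against 12818 in CAST, while the means of Apoa1 and Ttr were lower in females of both strains. In B6, the summed FPKM of 3 marker lists of other cells was higher in every female than in every male liver: 29.8 to 33.8 against 12.3 to 23.8 for the 4 Kupffer cell markers found of 5, 16.98 to 21.4 against 12.9 to 15.5 for the 4 endothelial markers, and 33.6 to 37.9 against 19.6 to 29.8 for the 5 stellate cell and fibroblast markers. None of these 3 lists had a marker at 0 on average in B6, and Lyve1 and Col1a1 had a lower mean in B6 females (1.16 and 1.05 FPKM) than in B6 males (1.59 and 1.32). In CAST the ranges of the same lists overlapped between the sexes, and Cd68, a Kupffer cell marker, was below 0.1 FPKM in both sexes. CAST male 5 stood apart in 12 acute phase genes, with a summed FPKM of 10867 against 2379 to 2783 in the other CAST males, and without it Igf1 was the only one of the 10 genes whose sex call in CAST changed. The part of these cells in the sex differences below was not tested, and in whole liver fewer cells of a type cannot be told apart from less RNA per cell.

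Per length, Ghr was the most abundant of the 10 transcripts in every group, followed by Igf1 and Igfals. Mean FPKM ran from 48.6 to 64.8 for Ghr, from 38.4 to 49.1 for Igf1 and from 26.98 to 43.8 for Igfals. These 3 genes did not overlap with one another in B6 males, whereas in CAST females each overlapped with its neighbour in the order. Below them came Stat5b, Prlr, Bcl6, Socs2 and Cish at mean FPKM of 1.35 to 15.3, where most neighbours overlapped within a group. In females Prlr came next after Igfals in both strains, clear of the gene below it in CAST but overlapping with Socs2 in B6. Socs3 stood at 1.05 to 1.54 FPKM, and Cux2 was last in males, at 0.0108 FPKM in B6 and 0.0115 in CAST.

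**Figure D1:**
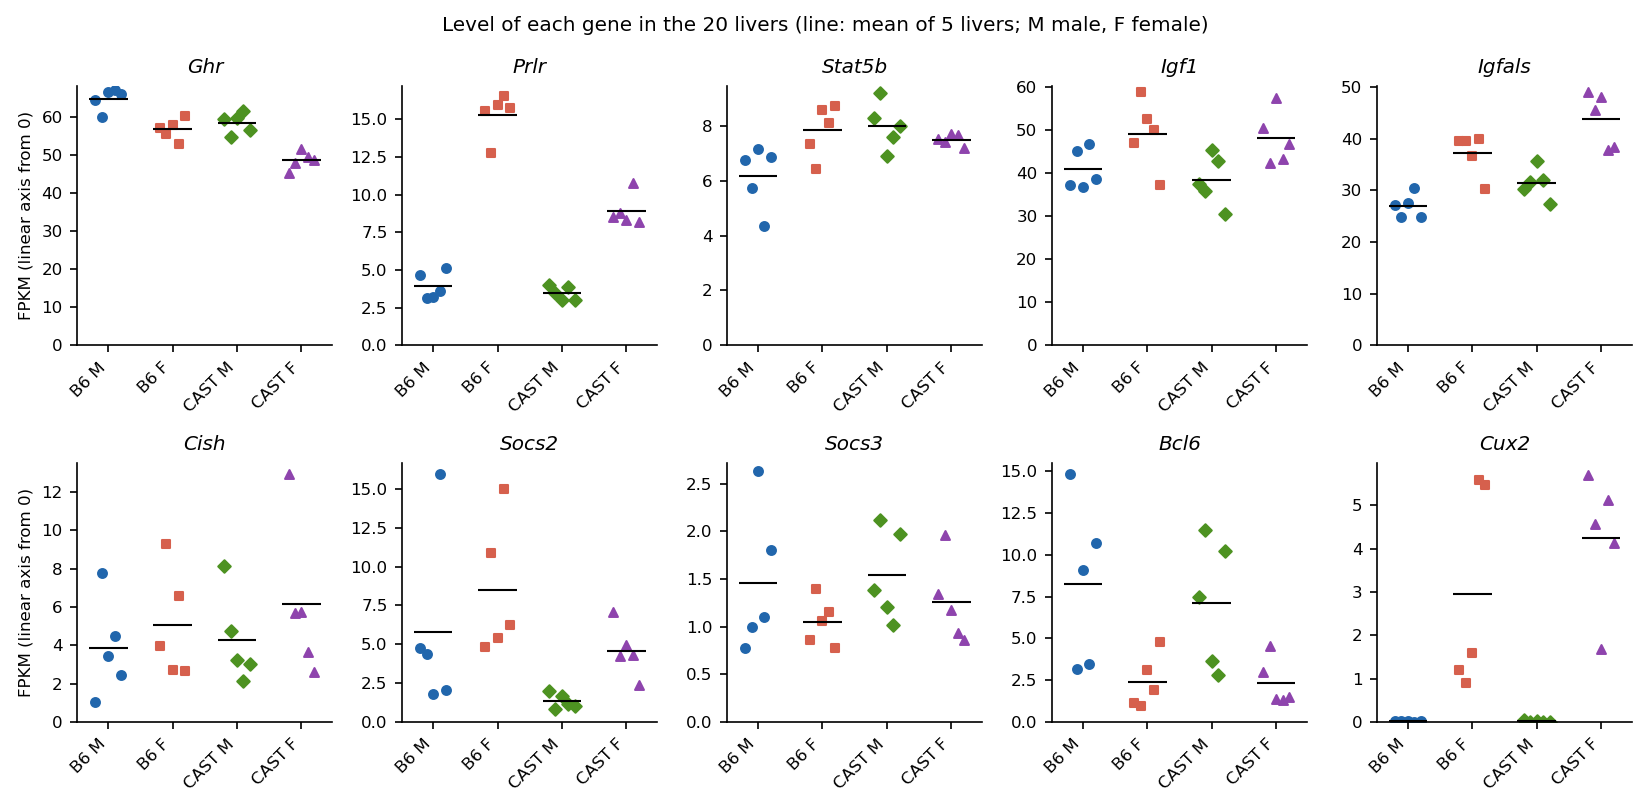
FPKM of each of the 10 genes in the 20 livers, 1 panel a gene, on linear axes that start at 0; points are single livers and lines are means of 5 livers. Prlr and Cux2 separate the sexes in both strains, Socs2 separates them in CAST, and Bcl6, Cish and Socs2 in B6 scatter widely between livers of 1 group.

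The question put to each gene was whether it differed between the sexes within a strain and between the strains within a sex. In B6, 4 of the 10 genes passed an adjusted p of 0.05 for sex (Prlr, Igfals and Cux2 higher in females, Bcl6 higher in males), against 7.55% of the 25690 genes tested (3.56% higher in females and 3.99% higher in males), with p from the quasi-likelihood test of edgeR, adjusted over all genes by the Benjamini-Hochberg method. In CAST, 6 of the 10 did so (the same 4, plus Igf1 and Socs2, both higher in females), against 5.65% of 24722 genes (3.30% or 816 genes higher in females and 2.35% or 580 higher in males, but 544 and 929 when scaled by library size alone). With a fold above 2 as well, the counts were 3 and 4 of 10, against 2.40% and 2.05% of all genes. With a filter on low counts, 2096 of 13397 genes were called for sex in B6 and 1542 of 13167 in CAST. These are larger shares than over all genes, and 4 and 5 members were called under that filter. Between the strains, 2 of 10 genes were called in males and 2 of 10 in females, against 38.4% and 39.9% of 25779 genes. With a fold above 2 as well, 1 of 10 was called in males (Socs2) and 0 of 10 in females, where 2 had an unadjusted p under 0.05, against 23.8% and 24.4% of all genes. With the filter on low counts, 8509 of 14532 genes were called between males and 8755 of 14532 between females, again larger shares than over all genes. B6 and CAST reads were aligned to different genomes, so a strain difference and a reference difference cannot be told apart in these last comparisons. Summed marker levels also separated the strains: every B6 liver lay above every CAST liver of its sex for Kupffer cell markers (12.3 to 23.8 against 4.17 to 11.04 FPKM in males, 29.8 to 33.8 against 6.69 to 22.7 in females). The same held for the sum of 4 cholangiocyte markers, at 1.08 to 3.25 against 0.577 to 0.883 over both sexes with Krt19 and Krt7 below 0.1 in CAST. Of these markers Epcam did not follow, with a mean of 0.375 in B6 and 0.366 in CAST males, and of 0.367 and 0.438 in females. It also held for 3 pancreas markers, at 3.24 to 8.43 against 0.371 to 1.54, a sum that is Cela1 alone because Prss2 and Amy2a5 were at 0 in both strains. The summed FPKM of 13 clock genes, of which Arntl was below 0.1 in CAST, was 40.1 to 64.1 in B6 and 74.3 to 113 in CAST females, and 45.1 to 74.9 and 66.2 to 109 in males. In females the strains also stood apart in 12 acute phase genes (3813 to 5034 in B6 against 2061 to 3013 in CAST) and in 5 T, B and NK cell markers (1.06 to 2.67 against 0.316 to 0.768, with Ms4a1 at 0 and Cd3e and Nkg7 below 0.1 in CAST), and in males the acute phase genes did so except for CAST male 5. The hepatocyte marker sum also separated the strains in males, at 19233 to 20291 in B6 against 16332 to 17859 in CAST, while in females the ranges overlapped. Of these markers Cps1 went the other way, with a mean of 431 in B6 and 502 in CAST males. The part of these shifts in the strain differences was not tested.

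**Figure D2:**
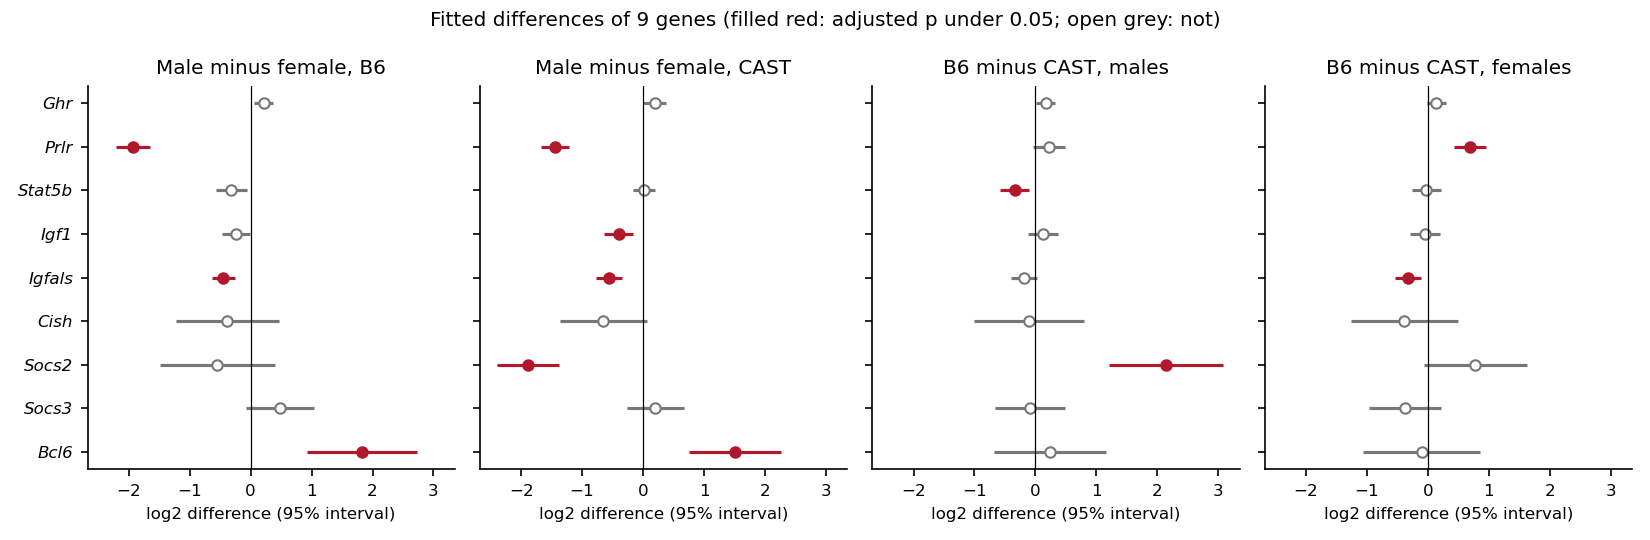
Fitted log2 differences of 9 genes with 95% intervals in 4 comparisons; filled red points passed an adjusted p of 0.05 and open grey points did not, and Cux2 is left out because males held 0 to 5 reads a library. The intervals of Cish, Socs2, Socs3 and Bcl6 are 1.91 to 6.18 times as wide as those of Ghr, Stat5b, Igf1 and Igfals in the same comparison.

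The receptors took different courses. Prlr, the prolactin receptor and a close relative of the growth hormone receptor (chr15:10106993-10303504 of mm9), was higher in females of both strains. Prlr FPKM was 4.66, 3.12, 3.20, 3.59 and 5.15 in the 5 B6 males and 15.5, 12.8, 15.9, 16.5 and 15.8 in the B6 females. It was 4.03, 3.46, 2.995, 3.86 and 2.98 in the CAST males and 8.52, 8.79, 8.28, 10.8 and 8.19 in the CAST females. Every female liver lay above every male liver of its strain, and every B6 female above every CAST female. Prlr was 3.80-fold higher in B6 females than males (log2 difference, male minus female, -1.93 ± 0.13 SE, adjusted p = 2.01e-08) and 2.72-fold higher in CAST females (-1.45 ± 0.11, adjusted p = 3.04e-08). Between strains it was 1.62-fold higher in B6 than CAST females (adjusted p = 6.56e-05), while in males the difference of 0.22 had a 95% interval of -0.04 to 0.49. The interaction of strain and sex (the male minus female log2 difference in B6 minus that in CAST) was -0.47, with a 95% interval of -0.84 to -0.10 and an adjusted p of 0.208, which misses the threshold. The annotation lists 155 exon bases of Prlr also under Agxt2 on the same strand, and reads there cannot be assigned to 1 gene.

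Ghr, the growth hormone receptor (chr15:3267760-3533492), had the lowest SD of log2 CPM (counts scaled to library size) of the 10 genes in every group, and its FPKM differed by at most 1.14-fold within a group. Its FPKM lay between 60.0 and 67.0 in B6 males, 52.9 and 60.4 in B6 females, 54.7 and 61.5 in CAST males, and 45.2 and 51.6 in CAST females. In CAST all males lay above all females, and in B6 only the lowest male fell below the highest female. The fitted male minus female log2 difference was 0.21 (95% interval 0.06 to 0.37, adjusted p = 0.0872) in B6 and 0.19 (0.01 to 0.37, adjusted p = 0.255) in CAST, so neither was called. DESeq2 called both (adjusted p = 0.00936 and 0.0456), as did limma on log2(FPKM + 1) (0.0484 and 0.0205). Every B6 female lay above every CAST female, and the B6 minus CAST log2 difference was 0.13 (95% interval -0.02 to 0.29, adjusted p = 0.167) in females and 0.17 (0.02 to 0.33, adjusted p = 0.0764) in males. Neither was called, but DESeq2 called both (0.0106 and 0.0176), as did limma on log2(FPKM + 1) (0.00099 and 0.0197), and edgeR with a filter or library size scaling called the difference in females (0.0374 and 0.0156).

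Stat5b, the transducer between the receptor and its target genes (chr11:100642045-100712038), was not called for sex in either strain, with 95% intervals of -0.57 to -0.06 in B6 and -0.17 to 0.20 in CAST for the male minus female log2 difference. Its lowest value was 4.35 FPKM, in B6 male 4, and its highest was 9.20, in CAST male 2. Stat5b was 1.27-fold lower in B6 than CAST males (adjusted p = 0.0192), a call lost without either of these 2 livers (adjusted p = 0.0687 and 0.0713). For its close paralog and neighbour Stat5a the male minus female log2 difference was -0.43 in B6 (adjusted p = 0.0436) and 0.28 in CAST (adjusted p = 0.105, not called). How reads from near-identical stretches of the pair were divided was not measured, so the values of both genes carry that uncertainty. Stat5a was 1.52 to 2.72 FPKM in B6 males against 2.35 to 2.99 in B6 females, and 2.21 to 2.79 in CAST males against 1.66 to 2.15 in CAST females. The interaction of strain and sex for Stat5a was -0.70 ± 0.17 (log2, adjusted p = 0.0204).

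Among the secreted products, Igf1, the growth factor that the liver releases into the circulation (chr10:87321010-87399792), differed little between the sexes. FPKM of Igf1 was 37.3, 45.2, 36.8, 46.7 and 38.7 in the B6 males and 47.1, 58.9, 52.6, 49.98 and 37.2 in the B6 females. In the CAST males it was 37.6, 35.9, 45.3, 42.8 and 30.6, and in the CAST females 50.5, 42.3, 57.4, 43.4 and 46.8. Male and female ranges overlapped in both strains. The difference was called in CAST alone, where Igf1 was 1.32-fold higher in females (adjusted p = 0.0486), while in B6 the male minus female log2 difference was -0.24 with an interval of -0.47 to -0.01 (adjusted p = 0.212). The CAST call lies at the threshold and was lost in 7 of the 10 fits that left out 1 CAST liver, and the interaction was 0.17 with an interval of -0.18 to 0.52 (adjusted p = 0.765).

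Igfals, the acid-labile subunit that holds IGF1 in a stable complex in blood (chr17:25014600-25018955), was higher in females of both strains. Its FPKM was 27.2, 24.9, 27.5, 30.5 and 24.8 in the B6 males and 39.6, 39.6, 36.7, 39.9 and 30.2 in the B6 females. Values of 30.3, 31.6, 35.6, 32.1 and 27.4 were found in the CAST males and of 49.0, 45.6, 48.1, 37.8 and 38.5 in the CAST females. The sexes did not overlap in CAST, and in B6 they did only through 1 male and 1 female liver near 30.5 and 30.2. Igfals was 1.36-fold higher in B6 females (adjusted p = 0.00379) and 1.47-fold higher in CAST females (adjusted p = 0.00198) than in males. It was also 1.25-fold higher in CAST than B6 females (adjusted p = 0.0136), which was not called without B6 female 5 (adjusted p = 0.0539), with library size scaling (0.0642) or with limma without a filter (0.0654 and 0.0663), and the interval of the strain difference in males was -0.41 to 0.02.

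Of the feedback inhibitors, Cish and Socs2 varied widely between livers. Cish, which binds activated cytokine receptors and blocks STAT5 docking (chr9:107198357-107205115), had an FPKM of 1.02, 7.80, 3.43, 4.47 and 2.45 in the B6 males and of 3.98, 9.31, 2.71, 6.55 and 2.67 in the B6 females. It had 8.14, 4.76, 3.21, 2.16 and 3.003 in the CAST males and 12.96, 5.71, 5.73, 3.65 and 2.62 in the CAST females. The spread within a group reached 7.62-fold in B6 males, and the groups overlapped throughout. The male minus female log2 difference was -0.38 (95% interval -1.22 to 0.46) in B6 and -0.65 (-1.36 to 0.07) in CAST, with adjusted p of 0.643 and 0.334. These intervals leave room for more than a 2-fold female excess in both strains. Cish also shares 261 and 479 exon bases with Gm17040 and Gm17041 on the opposite strand, and the counting is not stated to use strand.

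Socs2, an inhibitor that targets the growth hormone receptor for degradation (chr10:94847996-94879814), was called between the sexes in CAST and between the strains in males. Socs2 FPKM was 4.78, 4.35, 1.83, 15.95 and 2.06 in the B6 males and 4.81, 10.9, 5.39, 15.004 and 6.25 in the B6 females. In CAST it was 2.02, 0.859, 1.68, 1.18 and 1.00 in males and 7.07, 4.25, 4.93, 4.33 and 2.38 in females. Every CAST female lay above every CAST male, while B6 male 4 was the highest of all 20 livers and the other B6 males lay below all B6 females. Socs2 was 3.71-fold higher in CAST females than males (male minus female log2 difference -1.89 ± 0.24 SE, adjusted p = 3.46e-05). In B6 that difference was -0.55 (95% interval -1.49 to 0.40, adjusted p = 0.517), but without B6 male 4 it was -1.34 (adjusted p = 0.0145). Between males, Socs2 was 4.42-fold higher in B6 than CAST (adjusted p = 0.000346), and without B6 male 4 the log2 difference fell from 2.14 to 1.35 (adjusted p = 0.00261). Between females the B6 minus CAST log2 difference was 0.78 (interval -0.06 to 1.62, adjusted p = 0.137), and in the fit without B6 male 4 it was again 0.78 but called (adjusted p = 0.0419). The interaction was 1.36 (interval 0.12 to 2.61, adjusted p = 0.286) with all livers and 0.58 (adjusted p = 0.656) without B6 male 4.

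Socs3, an inhibitor induced by many cytokines besides growth hormone (chr11:117827393-117831361), had the lowest mean of the 3 in every group but CAST males. There the mean of Socs2 was lower (1.35 against 1.54 FPKM). It ranged from 0.772 to 2.63 FPKM in B6 males, 0.773 to 1.40 in B6 females, 1.02 to 2.11 in CAST males and 0.861 to 1.96 in CAST females. All 4 ranges overlapped, and none of the 5 comparisons was called. The male minus female log2 difference was 0.48 (95% interval -0.08 to 1.04) in B6 and 0.20 (-0.26 to 0.67) in CAST.

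Of the repressors, Bcl6, which competes with STAT5 at shared sites (chr16:23965138-23988938), was the only member called higher in males, in both strains. Bcl6 FPKM was 14.8, 3.19, 9.08, 3.45 and 10.7 in the B6 males and 1.15, 0.922, 3.13, 1.89 and 4.81 in the B6 females. It was 7.49, 11.5, 3.62, 2.83 and 10.2 in the CAST males and 2.99, 4.54, 1.36, 1.30 and 1.498 in the CAST females. In each strain 3 males lay above all females and 2 males lay within the female range. The mean difference was 3.56-fold in B6 (log2 1.83 ± 0.43 SE, adjusted p = 0.0120) and 2.85-fold in CAST (1.51 ± 0.36, adjusted p = 0.0151). Both calls held without any single liver of the strain (highest adjusted p = 0.0335 and 0.0419), and both were lost with a robust estimate of the spread (0.0802 and 0.107) and with limma on log2(FPKM + 1) (0.0969 and 0.130). Strain differences in Bcl6 had intervals of -0.68 to 1.15 in males and -1.06 to 0.86 in females.

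Cux2, a homeobox repressor of male-biased genes (chr5:122308396-122500111), was all but absent in males. B6 males held 5, 4, 2, 1 and 2 reads on Cux2 and CAST males 4, 3, 2, 0 and 0 reads. FPKM was 1.19, 0.897, 1.59, 5.58 and 5.46 in the B6 females and 5.70, 4.57, 1.68, 5.13 and 4.13 in the CAST females. Every female liver was far above every male liver, and the B6 females fell into 3 livers below 2 FPKM and 2 above 5. Summed over livers and scaled to library totals, females held 258 times (95% counting interval 153 to 472) the male reads in B6 and 441 times (232 to 965) in CAST, intervals that cover counting error only. The adjusted p was 2.35e-07 in B6 and 1.02e-10 in CAST. Without CAST male 1, which held 4 reads, the fitted male minus female log2 difference in CAST moved from -8.74 to -9.40. Between B6 and CAST females the log2 difference was -0.61 with an interval of -1.34 to 0.12 (adjusted p = 0.176), but it was -0.97 and called without B6 female 4 or B6 female 5 (adjusted p = 0.0323 and 0.0317). Male reads were too few for a strain comparison.

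None of the 10 genes was called for an interaction of strain and sex by edgeR's quasi-likelihood test, against 2.28% of all genes. At an unadjusted p under 0.05 there were 2, Prlr and Socs2. DESeq2 called none of them either, and limma on log2(FPKM + 0.1), with genes below a mean of 0.1 left out, called 1, Prlr (adjusted p = 0.0486). A sex difference called in 1 strain and not in the other, as for Igf1 and Socs2, was therefore not shown to differ between the strains.

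Of the other genes of the pathway, in 5 lists, 4 of 57 tested were called for sex in B6 (7.02%, against 7.55% of all genes) and 4 of 56 in CAST (7.14%, against 5.65%). The filter on low counts described above raised the share called among all genes, and the lists were not counted under it. Of 11 receptor-proximal kinases and adaptors, 0 were called for sex in either strain by edgeR's quasi-likelihood test, with 6 in B6 and 3 in CAST at an unadjusted p under 0.05; DESeq2 called 1 and 2, and limma on log2(FPKM + 0.1) called 0 and 2. Of 6 other STAT genes, 1 was called in each strain: Stat5a, 1.35-fold higher in B6 females (adjusted p = 0.0436), and Stat6, 1.26-fold higher in CAST males (adjusted p = 0.0316). Among 15 other negative regulators of cytokine signalling, Socs7 alone was called, 1.39-fold higher in B6 males (adjusted p = 0.00457), and in CAST 0 of the 14 tested were called by edgeR, DESeq2 or limma, with 1 at an unadjusted p under 0.05. Of 15 genes of the IGF axis, 1 was called in B6 and 2 in CAST, all higher in females: Igfbp7 in B6 (1.24-fold), and the carrier protein Igfbp3 (1.39-fold) and Igfbp2 (1.49-fold) in CAST. In B6, limma on log2(FPKM + 0.1) called 0 of the STAT genes, and in CAST it called 0 of the IGF axis genes. In CAST, 3 STAT genes were called by DESeq2 and 2 by limma. Lepr, the leptin receptor, was the single gene called by edgeR of 10 other class I cytokine receptors, in both strains, where DESeq2 called 2 in B6 and 1 in CAST. Lepr was 2.67-fold higher in B6 females (adjusted p = 0.000242) and 4.50-fold higher in CAST females (adjusted p = 6.02e-06) than in males. Its level was low, with a mean FPKM of 0.259 and 0.706 in B6 males and females and of 0.218 and 0.935 in CAST. Median male minus female log2 differences of the 5 lists lay between -0.19 and -0.0083 in B6 and between -0.36 and 0.22 in CAST, against 0.02 and -0.01 over all genes tested.

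Between the strains, 23 of 57 list genes were called in males (40.4%) and 26 of 57 in females (45.6%). Here too the filter on low counts raised the share called among all genes, and the lists were not counted under it. In males 2 of 11 kinases and adaptors, 4 of 6 STAT genes, 5 of 15 negative regulators, 8 of 15 IGF axis genes and 4 of 10 receptors were called, and in females 2, 3, 6, 9 and 6, against the 38.4% and 39.9% of all genes given above. Igfbp3 was 1.68-fold lower in B6 than CAST males and 1.88-fold lower in females (adjusted p = 5.48e-05 and 2.58e-06). Lifr, a receptor subunit for leukaemia inhibitory factor, was 2.23-fold and 1.90-fold higher in B6 males and females (adjusted p = 0.000117 and 0.00129). The negative regulators Ptpn1 and Ptpn11 had smaller adjusted p in edgeR's quasi-likelihood test than either. Ptpn1 was 3.76-fold lower in B6 than CAST males and 3.79-fold lower in females (adjusted p = 1.63e-15 and 1.71e-15). Ptpn11 was 3.06-fold and 2.75-fold higher in B6 males and females (adjusted p = 4.53e-14 and 3.11e-13). Ptpn2, a phosphatase found in most cells, was listed at 0 in all 10 CAST livers and at 0.848 to 1.24 FPKM in B6, so no fold is given. Of 8753 genes with a mean of at least 1 FPKM in B6, 60 were listed at 0 in all CAST livers, and whether such a 0 is a lack of transcript or of a countable annotation in the CAST genome cannot be told apart. Without Ptpn2, 4 and 5 of 14 negative regulators were called between the strains in males and females.

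The members differed in how much livers of a group varied. The SD of log2 CPM within a group was 0.06 to 0.11 for Ghr, 0.10 to 0.23 for Igfals, 0.15 to 0.25 for Igf1, 0.11 to 0.32 for Stat5b and 0.12 to 0.35 for Prlr. It was 0.34 to 0.70 for Socs3, 0.47 to 1.23 for Socs2, 0.70 to 1.07 for Cish and 0.83 to 1.02 for Bcl6, and in females 1.23 (B6) and 0.69 (CAST) for Cux2. No difference in this spread between the male and female livers of a strain passed a test. In 20 exact permutation tests of the mean absolute deviation from the group median (10 genes, 2 strains, two-sided), 0 passed an adjusted p of 0.05 and 0 had an unadjusted p under 0.05, with 0.00794 the smallest p possible. A single gene at that p would have an adjusted p of 0.159, so the tests could hardly pass. The difference with the smallest p was that of Prlr in B6, at 0.27 in males and 0.07 in females (exact p = 0.159).

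**Figure D3:**
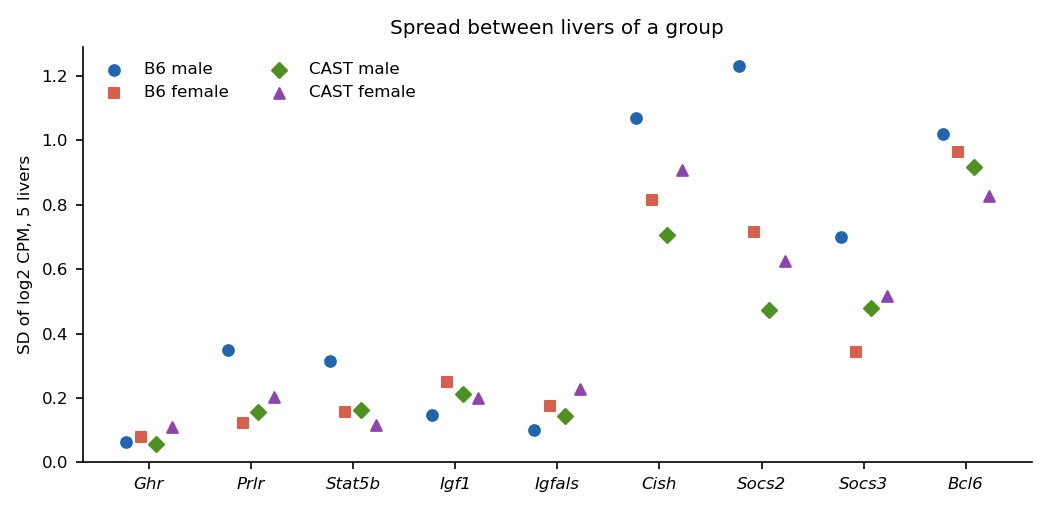
SD of log2 CPM over the 5 livers of each group for 9 genes, 1 point a group, on an axis that starts at 0; Cux2 is left out because males held 0 to 5 reads a library. Ghr, Igf1 and Igfals lie at 0.25 or below in all groups, while Cish and Bcl6 lie at 0.70 or above.

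To ask whether the variable genes rose and fell together, each liver's log2 CPM was taken as a deviation from its group's mean, and Cish, Socs2, Bcl6 and Igf1 were compared in 6 pairs over 20 livers by a permutation test with 100000 shuffles of livers within groups (two-sided, adjusted over the 6 pairs). Bcl6 and Igf1 were inversely related (Pearson r = -0.67, permutation p = 0.00368, adjusted p = 0.0221; Spearman rho = -0.65, p = 0.00449, adjusted p = 0.0269). They lay on opposite sides of their group means in 15 of 20 livers. The relation held in direction but not past the threshold without the 2 livers farthest from the median of Bcl6 (r = -0.56, adjusted p = 0.0787), and the same was true without B6 female 2 (r = -0.62, adjusted p = 0.0657) or B6 female 5 (r = -0.59, adjusted p = 0.0895).

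In males the values ran as follows. The 3 B6 males with the highest Bcl6 (14.8, 10.7 and 9.08 FPKM) had Igf1 of 37.3, 38.7 and 36.8 FPKM, and the 2 with the lowest Bcl6 (3.19 and 3.45) had 45.2 and 46.7. In CAST males, Bcl6 of 11.5, 10.2 and 7.49 FPKM went with Igf1 of 35.9, 30.6 and 37.6, and Bcl6 of 3.62 and 2.83 with 45.3 and 42.8. All 10 males thus stood on opposite sides of their group means for the 2 genes, with r = -0.83 in males alone (permutation p = 0.00981, adjusted p = 0.0589, n = 10 livers). In females alone r was -0.54 (permutation p = 0.138, adjusted p = 0.276), with 5 of 10 livers on opposite sides, and the difference from males was not tested. Within strains r was -0.80 in B6 (permutation p = 0.00946, adjusted p = 0.0284) and -0.52 in CAST (permutation p = 0.144, adjusted p = 0.280).

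Cish and Socs2, both induced by STAT5, tended to rise together. Pearson r was 0.46 (permutation p = 0.0937, adjusted p = 0.141), Spearman rho was 0.57 (p = 0.0222, adjusted p = 0.0444), and r was 0.60 without B6 males 1 and 2 (adjusted p = 0.0154), so the call depends on the measure and on those livers. In 10 female livers r was 0.85 (permutation p = 0.00729, adjusted p = 0.0437), and it was 0.19 in 10 male livers (permutation p = 0.694), a difference that was not tested. Socs2 and Igf1 had r = 0.47 (permutation p = 0.0329, adjusted p = 0.0988; rho = 0.55, adjusted p = 0.0444), and r = 0.42 without the 2 extreme livers. Cish and Igf1 had r = 0.41 (permutation p = 0.0867, adjusted p = 0.141), rho = 0.47 (p = 0.0559) and r = 0.36 without B6 males 1 and 2.

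Cish and Bcl6 gave no pooled relation (r = -0.24, permutation p = 0.358; rho = -0.26, p = 0.317), and their r was 0.0062 without B6 males 1 and 2. The sign of r differed between the strains: r was -0.85 in 10 B6 livers (permutation p = 0.00420, adjusted p = 0.0252) and 0.57 in 10 CAST livers (permutation p = 0.107, adjusted p = 0.280). The CAST value was not called, the B6 livers include B6 males 1 and 2, and the difference between the strains was not tested. Socs2 and Bcl6 had r = -0.30 (permutation p = 0.269; rho = -0.27, p = 0.298), and -0.13 without the 2 extreme livers.

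**Figure D4:**
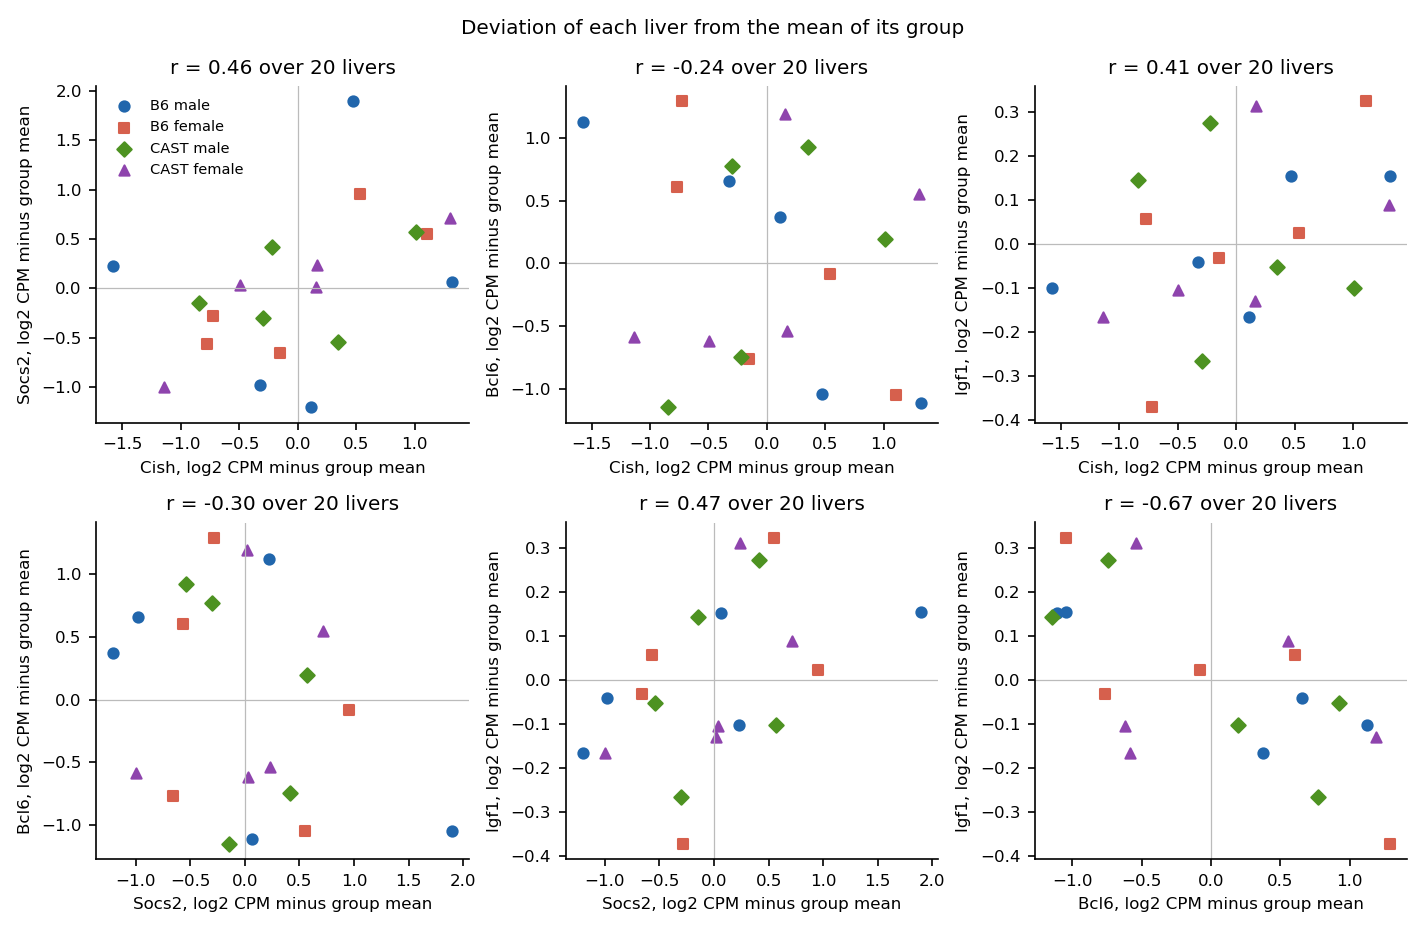
Deviation of each liver from its group's mean (log2 CPM) for the 6 pairs of Cish, Socs2, Bcl6 and Igf1, 1 point a liver and 1 colour and symbol a group. In the panel of Bcl6 against Igf1 the points run from upper left to lower right (r = -0.67), and in the panel of Cish against Socs2 most lie in the lower left and upper right (r = 0.46).

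Of 52 relations of Cish, Socs2, Bcl6 and Igf1 with library depth, with 8 lists of cell type markers and with lists of clock, fasting, acute phase and immediate early genes, 0 passed an adjusted p of 0.05 by the permutation test and 1 had an unadjusted p under 0.05, Cish with the clock genes (r = -0.48, permutation p = 0.0489, adjusted p = 0.869; rho = -0.54, p = 0.0274; r = -0.36 without the 2 extreme livers). With the acute phase genes, r was 0.16 for Cish (rho = 0.51, p = 0.0139, adjusted p = 0.608) and 0.12 for Socs2 (rho = 0.32, p = 0.138), and without the 2 livers farthest from the median of these genes r was 0.73 (unadjusted permutation p = 0.00211) and 0.68 (0.00681). With library depth, r was 0.36 for Cish, 0.15 for Socs2, 0.21 for Bcl6 and 0.31 for Igf1.

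The genes whose deviations over the 20 livers were most like those of a member were read off as a description, among the 9113 genes whose mean count reached 50 in every group. The closest to Cish were Wdr44 (r = 0.86) and Vmp1 (r = 0.81), and those closest to Socs2 were Nrep (r = 0.76) and Tuft1 (r = 0.75). Bcl6 ran most closely with Rhpn2 (r = 0.89) and Trib3 (r = 0.83), and Igf1 with Ces3b (r = 0.89). For Cux2, whose male deviations rest on 0 to 5 reads a library, the closest were Fn3k and BC021891 (r = 0.78 and 0.77). These are the highest of 9113 values over 20 livers each, and the genes share libraries and depth.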

How the data were processed

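The authors aligned paired reads of 50 nt from directional polyA libraries to mm9 (B6) or to a CAST genome made from it, with TopHat (version 2.1.1) and g2gtools (version 0.2.7). The deposited count tables hold the authors' FeatureCounts (version 1.6.2) counts of uniquely mapped reads on exons, as whole, unscaled numbers, 1 table a strain, and the deposited FPKM table scales them by gene length and library. The fold changes and p-values of the authors' own tests in these tables and 24 further value columns were not used.

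Counts were fitted in R 4.3.3 with edgeR 4.0.16 (TMM, quasi-likelihood test, p adjusted by Benjamini and Hochberg's method over every gene with 1 read or more): each strain alone for sex, and all 20 libraries as 4 groups for strain and interaction, where 2028 genes listed in 1 table alone and detected in the other strain were left out. Intervals and SE are on the log2 scale. Comparisons that share a group are not independent. FPKM served for levels, and log2 CPM (prior count 1) for spread and covariation. Alternatives were DESeq2 1.42.0, limma 3.58.1 on log2(FPKM + 0.1) or log2(FPKM + 1), other scaling and filters, a replicate block and leaving out each liver; the block with a filter and the robust fit were added after seeing the data. Scripts were tested on simulated data. The 10 genes and all lists were chosen with earlier results of these data known. Named beside the 10 are list genes called in some comparison, at most 8 a list, and the closest of the 5 genes most like Cish, Socs2, Bcl6, Igf1 or Cux2. Not all list genes that meet this rule are named; those printed were picked from them with their values seen, and the rest enter the counts. Livers of a group were not duplicates, but nothing states that they came from separate litters or cages.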

Additional observations from a re-analysis of the deposited data

Results flagged for a closer look

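Within the 4 groups of 5 livers, the FPKM of 10 genes was searched for single livers far from the rest by Dixon's test at the 95% level, which chance passes in about 1 of 20 groups; 4 of the 40 sets of 5 values did so. Socs2 in B6 male 4, at 15.95 FPKM, was far above the other B6 males. Prlr in B6 female 2, at 12.8 FPKM, was far below the other B6 females, and Prlr in CAST female 4, at 10.8 FPKM, was far above the other CAST females. Cux2 in CAST male 1, at 0.0405 FPKM, rests on 4 reads.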

How the results depend on the processing

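Of the differences fitted for single members, 725 of 760 fits without 1 liver and 432 of 500 other refits kept both their direction and their side of the threshold. Without 1 liver at a time, the number of members called ranged from 4 to 5 for sex in B6, from 5 to 6 for sex in CAST, from 1 to 2 between males (1 without B6 male 4 or CAST male 2), from 2 to 3 between females, and stayed at 0 for the interaction. Pairs called in the covariation ranged from 0 (without B6 female 2 or 5) to 2 (without B6 male 1). The tests of spread gave 0 calls in every fit, which shows no stability, because a single gene at the smallest possible p would have an adjusted p of 0.159. The call of Igf1 in CAST was lost in 14 of 21 refits, and those of Bcl6 in both strains under limma without a filter and under a robust fit; the cause was not tested.

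Replicate numbers are shared between groups, but not every same-numbered pair passed a correlation of 0.1, so the livers were not treated as pairs. Over 11726 genes the correlation of same-numbered males and females ran from -0.03 to 0.24 in B6 and from -0.06 to 0.34 in CAST, with means of 0.05 and 0.14 against -0.01 and -0.03 for other numbers, and 1 and 2 of 5 males were closest to their own number. Member by member over 10 male and female pairs, added after seeing the data, 0 of 10 passed an adjusted p of 0.05. Cish (r = 0.67, exact permutation p = 0.0419, adjusted p = 0.217; rho = 0.68, p = 0.0472) and Socs2 (r = 0.69, exact permutation p = 0.0435, adjusted p = 0.217; rho = 0.68, p = 0.0568) had an unadjusted p under 0.05, with r of 0.77 and 0.44 without the 2 extreme pairs. With the number as a replicate block, 7 members were called in B6 and 7 in CAST, but the prior degrees of freedom became infinite in these fits, so that each gene's own spread was ignored, and 1 pair covaried. Cux2 was then also called between females (adjusted p = 0.0237), but not with the filter below. With a filter on low counts as well, the block gave 4 in B6 and 7 in CAST (Cish added, adjusted p = 0.0453), 3 between males, 3 between females and 0 for the interaction. The filtered block and the robust fit were chosen after seeing the data.

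Counts that moved under other settings were those between the strains with a fold above 2 (1 in males and 0 in females), the interaction under limma with genes below a mean FPKM of 0.1 left out (1), and the pairs called by Spearman's rho (3), in males alone (0), in B6 alone (2) and in CAST alone (0). DESeq2 called 1.99 times as many genes as edgeR for the interaction over all genes, 1172 against 588, and the replicate block 1.97 times as many for sex in CAST, 2754 against 1396. The interaction fell to 356 genes without B6 female 3 and to 366 without CAST female 1, and its 372 positive and 216 negative calls became 192 and 300 with library size.

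The reversed values all belong to differences that were not called as reported. Between females, the B6 minus CAST difference was -0.024 for Stat5b, but 0.021 with DESeq2 or its size factors, 0.070 with library size, 0.0091 with a filter (robust or not), 0.0050 with the filtered block, and 0.054 (pseudocount 0.1, filtered or not) and 0.050 (pseudocount 1) with limma. For Igf1 it was -0.047, but 0.043 with library size and 0.025 and 0.024 with limma at these pseudocounts, and for Bcl6 -0.10, but 0.0041 with library size. The interaction of Ghr was 0.038, but -0.011 with DESeq2 or its size factors, -0.013 with a filter (robust or not), -0.014 with the filtered block, -0.061 with library size, and -0.074 and -0.072 with limma. That of Cish was 0.29, but -0.033 with limma at a pseudocount of 0.1. The correlation of Cish with Bcl6 turned from -0.24 to 0.0062 without the 2 extreme livers and 0.57 in CAST alone, and that of Socs2 with Bcl6 from -0.30 to 0.023 in CAST alone. Without 1 liver, the sex difference of Stat5b in CAST ranged from -0.042 to 0.063. Between males, Cish ranged from -0.56 to 0.20, Socs3 from -0.39 to 0.094 and Bcl6 from -0.10 to 0.51. Between females, Stat5b ranged from -0.069 to 0.029, Igf1 from -0.14 to 0.036, Cish from -0.75 to 0.084 and Bcl6 from -0.55 to 0.27. For the interaction, Ghr ranged from -0.015 to 0.068, Cish from -0.18 to 0.65, Socs3 from -0.017 to 0.45 and Bcl6 from -0.067 to 0.79. Depth limits Cux2 in males, where 0 to 5 reads a library carry the value.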

Other observations

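Over all 36 pairs of 9 members (Cux2 left out), a search made after the 6 pairs had been seen, 3 passed an adjusted p of 0.05 by the same permutation test over 20 livers. Bcl6 and Stat5b deviated together (r = 0.72, permutation p = 0.000420, adjusted p = 0.0151; rho = 0.73, adjusted p = 0.0279), on the same side of their group means in 16 of 20 livers, and r was 0.73 without the 2 extreme livers. Igf1 and Igfals did so as well (r = 0.70, permutation p = 0.00296, adjusted p = 0.0419; rho = 0.73, adjusted p = 0.0279), with r = 0.63 without the 2 extreme livers. The third was Bcl6 with Igf1 (adjusted p = 0.0419 over 36 pairs). Stat5b and Socs2 had r = -0.59 (permutation p = 0.0489, adjusted p = 0.251; rho = -0.43), which was -0.13 without the 2 livers farthest from the median of Stat5b.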
